A study of Mus musculus with 66 samples.

Results

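The comparison described here sets mutant progenitors of the ventral spinal cord on day 11 of differentiation (MUT D11) against wild-type progenitors on day 9 (WT D9), both sorted from the gate labelled NFIAn. It takes the 14 of the 66 libraries of the series that carry these labels: 6 MUT D11 libraries, 2 for each of the progenitor domains p1, p2 and pM, and 8 WT D9 libraries, 3 for p1, 3 for p2 and 2 for pM. The cells were made from mouse embryonic stem cells plated with 10 ng/ml bFGF, exposed on day 2 to 5 μM CHIR99021, a GSK3β inhibitor, and given 100 nM retinoic acid (RA) with 10 nM of the Smoothened agonist SAG on day 3. RA was left out after day 5 while SAG stayed, so both groups lived in the same medium. Cells were fixed in glyoxal, stained inside the cell and sorted, with 10000 to 15000 cells in each population, and polyadenylated RNA was sequenced. Both genotype and day differ between the groups, so their parts in any difference cannot be told apart in this contrast. Neither the mutated gene nor the ES cell line or number of clones is given in the labels. Nor do they say whether the libraries of a group are separate cultures, and the p-values below reflect the spread between libraries, which may be technical.

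NFIA is a transcription factor of the nuclear factor I (NFI) family. It appears in spinal cord progenitors as they turn from making neurons to making glia, and it is used as a mark of that later state. The ventral domains p1, p2 and pM lie one above the other in the neural tube, each with its own homeodomain and bHLH factors, and pass through shared temporal states in which early genes such as Lin28a go down and NFI factors and glial genes come up. In the series all MUT libraries carry the NFIAn label on every day, while WT cells on day 11 carry only the NFIAp label, so WT D9 is the last wild-type day with an NFIAn gate.

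The values are normalised counts, that is, reads divided by a size factor of the library. Differences are log2(normalised count + 1) of MUT D11 minus WT D9, with the domain as a covariate, from limma with a variance trend, and a gene is called where the Benjamini-Hochberg adjusted p over all 14331 genes tested is under 0.05. Of these genes 2676 (18.7%) were called, 1486 higher (10.4%) and 1190 lower (8.3%) in MUT D11. The difference was at least 2-fold for 964 of the higher and 510 of the lower genes, and the median over all genes tested was 0.09. Libraries of both groups did not overlap within any domain for 739 higher (5.16%) and 424 lower (2.96%) genes among all tested.

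Read numbers recovered from the table were close, at 20.9 to 26.4 M a library, but the libraries stood apart in what they hold. The normalised counts summed to 17.8 to 25.5 M in the MUT D11 libraries and to 21.4 to 22.4 M in WT D9 replicate 1, against 27.6 to 34.6 M in the 5 WT D9 libraries of replicates 2 and 3. Ribosomal protein genes took 2.64 to 8.09% of the sum in MUT D11 and 5.74 to 6.48% in WT D9 replicate 1, against 8.98 to 14.5% in those 5 libraries. Of 83 ribosomal protein genes tested, 1 was higher and 31 were lower in MUT D11, with a median difference of -1.20. Without these 5 libraries 0 of the 83 were called and the median was -0.31. Without the same 5 libraries, which leaves 3 WT D9 libraries, 94 genes were called, 81 higher and 13 lower. The median difference over all genes tested was then 0. Among single libraries, the count fell most without a MUT D11 library of replicate 3 (1256 without p1, 1311 without p2 and 1478 without pM) and without WT D9 pM replicate 3 (1483). In a fit that lets libraries sharing genotype, day and replicate number be correlated, 775 genes (5.41%) were called, 411 higher and 364 lower, among them 1 higher and 6 lower ribosomal protein genes. The list counts below therefore come with the counts of both these fits. They stand beside 10.4% higher and 8.3% lower over all genes tested in the main fit. The shares called were 5.41% with the correlation and 94 of 14331 without the 5 libraries. With so few calls, a list with 0 called in the last fit is near that share, which is not a result about its members. Of the 144 genes that the naming rule took, 112 were called. All 112 kept their direction in every alternative fit, while 65 stayed called with the correlation and 20 without the 5 libraries. These genes were called in the same libraries that the alternatives reuse, so the kept direction is no independent support. The part of library composition in these differences was not tested.

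**Figure D1:**
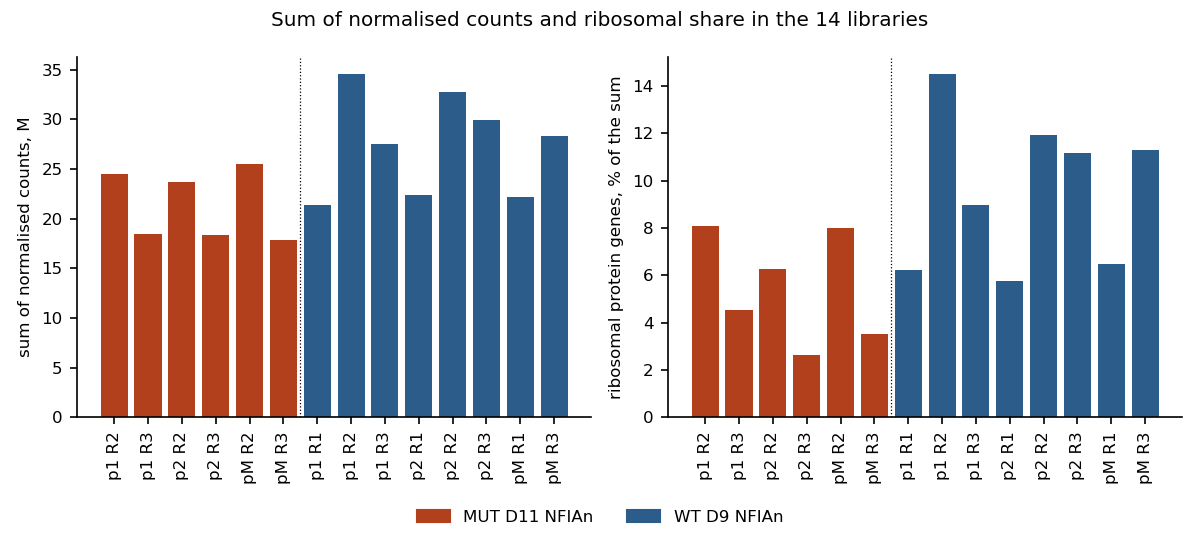
Sum of the normalised counts in units of M (left) and share of that sum in ribosomal protein genes in percent (right), 1 bar per library, MUT D11 left of WT D9. The 5 WT D9 libraries of replicates 2 and 3 reach 27.6 to 34.6 M and 8.98 to 14.5%, above all 6 MUT D11 libraries.

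Genes of the sorted domains followed the labels in both groups. Dbx1, a homeodomain factor of p0 and p1, had 11910 and 13680 normalised counts in the MUT D11 p1 libraries, and 6754, 5796 and 5912 in the WT D9 p1 libraries. Vsx1, a homeodomain factor of p2 cells, had 772 and 669 in MUT D11 p2 and 1812, 2470 and 2150 in WT D9 p2, and at most 105 elsewhere. Olig2, the bHLH factor that defines pM, had 1139 and 658 in MUT D11 pM and 1435 and 1199 in WT D9 pM, and at most 109 elsewhere. Each marker was thus highest in its own domain on both sides. Dbx1 was called over the domains, with a difference of 1.96 ± 0.42 (SE; limma adjusted p = 0.00616). It had 1326 and 1911 in MUT D11 p2 and 111, 169.9 and 562 in WT D9 p2, so the p2 sorts held more Dbx1 RNA on day 11. Dbx2, Foxn4, Vsx1, Irx3, Nkx6-1, Pax6, Olig1 and Olig2, all factors of ventral patterning, were not called over the domains, with differences between -0.42 and 0.53. These differences average domains of unlike level. Vsx1 in p2 and Olig2 in pM were lower in MUT D11 without overlap. So were Foxn4 in p2 (293 and 440 against 732, 570 and 670) and Dbx2 in p1 (2140 and 2332 against 3628, 3157 and 2869). Irx3 in p1 was also lower without overlap (835 and 758 against 1366, 1060 and 1673). Dbx2 was higher in p2 (360 and 362 against 101, 73.6 and 324). Nkx6-1 in p2 and Olig1 in pM overlapped. In such bulk libraries fewer cells of a type and less RNA per cell cannot be told apart.

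All 4 NFI genes rose at the RNA level, with a median difference of 2.75, and of 1.93 without the 5 libraries. Both groups carry the NFIAn label, which comes from sorting of stained cells and is not a measure of RNA. The lowest, median and highest values of Nfia were 1014, 1795 and 2177 normalised counts in the MUT D11 libraries and 77.8, 226 and 670.2 in the WT D9 libraries. No MUT D11 library reached down into the WT D9 range, the difference was 2.74 ± 0.36 (limma adjusted p = 0.000301), and the call held without the 5 libraries of high total (adjusted p = 0.00411). Nfia lies at chr4:97772734-98118874 (GRCm38, GENCODE M21). Nfib, its close relative in the glial switch, had 879, 1322 and 1488 normalised counts in the MUT D11 libraries and 64.2, 156 and 517 in the WT D9 libraries. Its groups did not overlap either, and the difference was 2.76 ± 0.33 (limma adjusted p = 0.000228). Nfic and Nfix rose too, with values from 37.9 to 136 in MUT D11 and from 5.05 to 26.8 in WT D9 for Nfic, and from 15.9 to 101 in MUT D11 and from 0 to 18.8 in WT D9 for Nfix, with differences of 2.26 ± 0.50 and 3.21 ± 0.73. Their calls were lost without the 5 libraries (adjusted p = 0.198 for Nfic and 0.161 for Nfix) and with the correlation (adjusted p = 0.064 for Nfic and 0.0723 for Nfix).

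**Figure D2:**
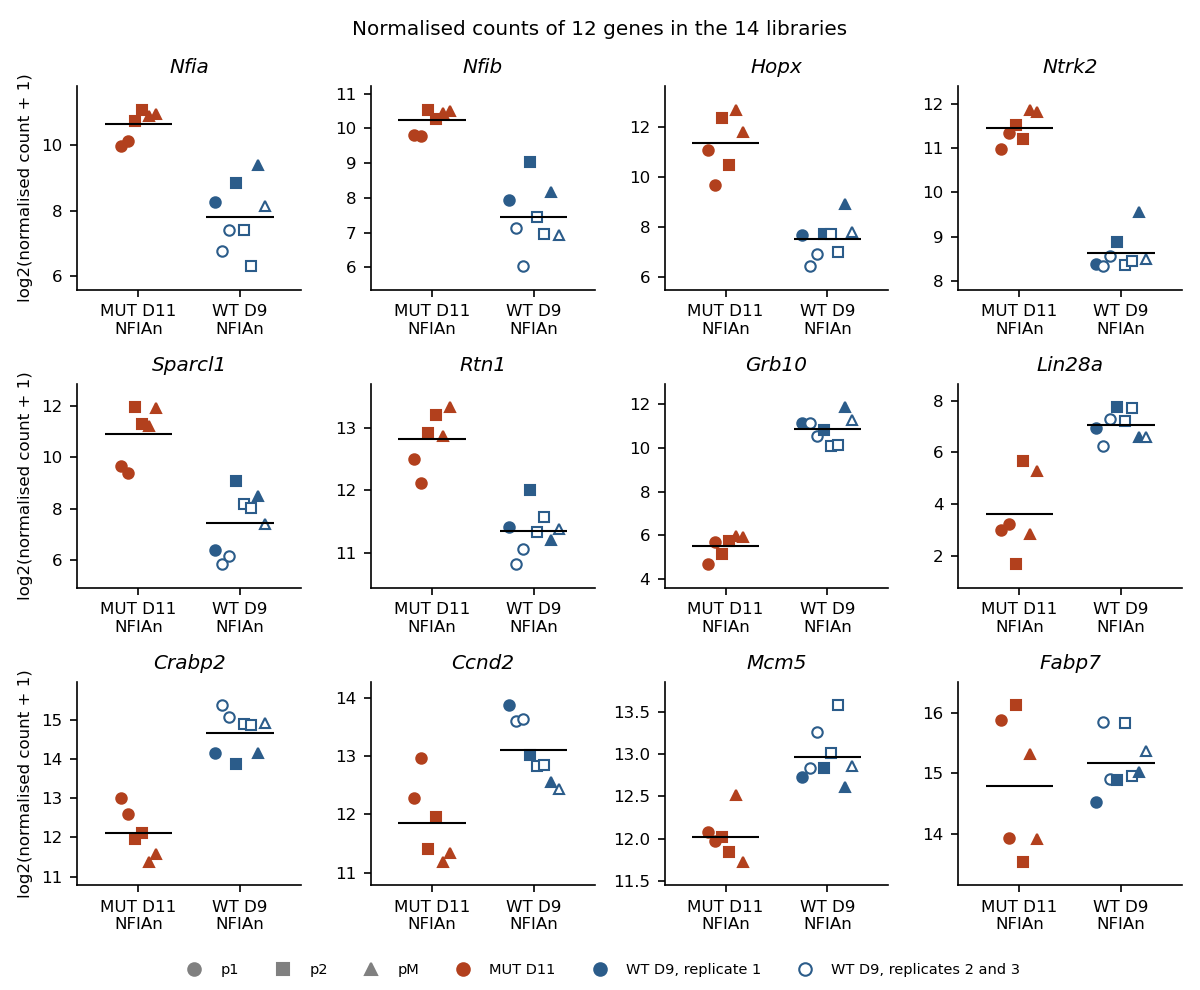
Values of 12 genes in the 14 libraries, as log2(normalised count + 1), MUT D11 left and WT D9 right in each panel. Symbols give the domain, open symbols the WT D9 libraries of replicates 2 and 3, and lines the group means. Nfia, Nfib, Hopx, Ntrk2, Sparcl1 and Rtn1 lie higher and Grb10, Lin28a and Crabp2 lower in every MUT D11 library than in any WT D9 library, while Fabp7 overlaps.

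Transcription factors of late progenitors rose or were not called. Of 16 tested, 8 rose and 0 fell, with a median difference of 0.72, and of 0.34 without the 5 libraries. With the correlation 3 rose, and without the 5 libraries 1 rose. That 1 was Hopx, a small homeodomain protein found in radial glia and astrocyte precursors. Its lowest, median and highest values were 804, 2884 and 6622 normalised counts in the MUT D11 libraries and 84.6, 206 and 484 in the WT D9 libraries. The MUT D11 libraries were far apart, p1 and replicate 3 being lower, yet the lowest of them was above the highest WT D9 library, and the difference was 3.72 ± 0.33 (limma adjusted p = 1.29e-05). The gene lies at chr5:77086988-77115121. Rfx4, a factor of the ciliary gene program of the neural tube, ranged from 1156 to 3904 in MUT D11 and from 462 to 1248 in WT D9, with a difference of 1.13 ± 0.22. Sall3, a zinc finger factor, differed by 1.32 ± 0.27, and Sox8, a relative of Sox9, by 1.06 ± 0.28. Its groups overlapped in p1, with 99.7 and 142 in MUT D11 and 105.5, 93.0 and 58.7 in WT D9 for Sox8. Zbtb20, a zinc finger factor of astrocyte development, differed by 3.02 ± 0.93 but overlapped in p2, with 99.1 and 136 in MUT D11. Its WT D9 libraries of replicate 1 had 53.2 (p1), 182 (p2) and 76.6 (pM), and the 5 of replicates 2 and 3 had 0 to 14.1. The other members called were Npas3, Nr2f1 and Tsc22d4. Sox9, the factor that acts with NFIA at glial genes, ranged from 3345 to 7870 in MUT D11 and from 1815 to 6649 in WT D9, so its groups overlapped, and it was not called (limma adjusted p = 0.215).

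The astroglial genes moved in one direction. Of 33 listed, 28 were tested, 16 rose and 0 fell, with a median difference of 1.10. With the correlation 8 rose, and without the 5 libraries 4 rose, with a median of 0.74. Ntrk2, the BDNF receptor TrkB and an early astrocyte gene, had 2004, 2767 and 3736 normalised counts in the MUT D11 libraries and 323, 357 and 758 in the WT D9 libraries as lowest, median and highest values. Its lowest MUT D11 library, in p1, was above its highest WT D9 library, in pM, and its difference was 2.77 ± 0.17, with the smallest adjusted p of the list (1.2e-07, limma). Sparcl1, a secreted matricellular protein of astrocytes, had 675, 2448 and 3948 normalised counts in the MUT D11 libraries and 56.4, 214 and 547 in the WT D9 libraries. Its p1 libraries were the lowest of MUT D11 and still above every WT D9 library, and its difference was 3.40 ± 0.23 (limma adjusted p = 4.13e-07). Both genes also kept their calls without the 5 libraries.

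Other astroglial genes rose or were not called. Slc1a3, the glutamate transporter GLAST, ranged from 2556 to 6747 in MUT D11 and from 825 to 3230 in WT D9, with a difference of 1.53 ± 0.28 (limma adjusted p = 0.00289). Its highest WT D9 library, a pM library, was above the lowest MUT D11 library, a p1 library, so the groups overlapped across domains but not within them. Aldoc, the brain aldolase, ranged from 300.2 to 1169 in MUT D11 and from 129.7 to 319.8 in WT D9, with a difference of 1.82 ± 0.26. Also called were Slc1a2, Fgfr3, Tnc, Apoe, Mlc1, Atp1b2, Ttyh1, Cspg5, Mt3, Luzp2 and Sparc, with differences from 0.60 for Slc1a2 to 3.48 for Luzp2. Fabp7, the brain lipid-binding protein of radial glia, was not called, at -0.37 ± 0.42 (limma adjusted p = 0.558). Its MUT D11 libraries split by replicate number: the 3 of replicate 2 had 60420, 71340 and 40850 normalised counts, and the 3 of replicate 3 had 15650, 11860 and 15340, with the WT D9 libraries at 23570 to 58690. Glul, Gja1, Clu and Kcnj10, all genes of mature astrocytes, were likewise not called, and Aqp4 and Gfap were too low to be tested.

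Several of the 12 largest rises lay outside the lists. Aspa, the enzyme that cleaves N-acetylaspartate in glia, was at 0 in all 8 WT D9 libraries and at 7.50 to 146 in MUT D11, highest in p1. Further such rises were those of Kcna6, a potassium channel subunit, Sema3b, a secreted guidance cue, Flrt1, an adhesion receptor, Faim2, an inhibitor of Fas-induced death, Lama4, a laminin chain, and Ccdc81. Their differences lay between 4.28 for Ccdc81 and 4.69 for Kcna6. Sema3b and Lama4 kept their calls without the 5 libraries, while for Kcna6, Flrt1, Faim2 and Ccdc81 the adjusted p was then between 0.0625 and 0.111.

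Genes of the oligodendrocyte lineage split. Of 15 tested, 7 rose and 1 fell, with a median difference of 0.41. With the correlation 3 rose and 1 fell, while without the 5 libraries 0 were called, with a median of 0.16. Sox10, the factor of oligodendrocyte precursors and neural crest, ranged from 81.7 to 1249 in MUT D11 and from 4.01 to 274 in WT D9, with a difference of 2.94 ± 0.51. Its highest MUT D11 and highest WT D9 libraries were both p1 libraries. Gpr17, a receptor of committed oligodendrocyte precursors, ranged from 26.1 to 209 in MUT D11 and from 0 to 23.4 in WT D9, with a difference of 4.03 ± 0.77, and Ptprz1, a phosphatase of glial precursors, differed by 1.68 ± 0.28. Pdgfra, Cspg4 and Lhfpl3 rose too, at low levels. Their means were 35.9, 8.79 and 26.3 normalised counts in MUT D11 and 3.16, 0.67 and 2.89 in WT D9. Cnp, a myelin enzyme also found in progenitors, was the member that fell. Its values ranged from 1283 to 1987 in MUT D11 and from 2724 to 3892 in WT D9, without overlap, and the difference was -0.94 ± 0.14 (limma adjusted p = 0.000801). The pM factors Olig1 and Olig2, which later specify oligodendrocytes, were not called, with overlapping ranges from 7.97 to 1139 in MUT D11 and from 9.34 to 1435 in WT D9 for Olig2.

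Radial glial and neural stem genes showed no common direction. Of 18 tested, 4 rose and 2 fell, with a median difference of 0.09, near that of all genes. With the correlation 3 rose and 1 fell, and 0 were called without the 5 libraries. Gpm6b, a membrane proteolipid, ranged from 5863 to 14910 in MUT D11 and from 2052 to 6032 in WT D9, and Ednrb, the endothelin receptor of radial glia, differed by 1.11 ± 0.28. Nes, the intermediate filament nestin, fell, with values from 959.6 to 1664 in MUT D11 and from 1776 to 3379 in WT D9 and a difference of -0.84 ± 0.13 (limma adjusted p = 0.00119). Hes5, the Notch effector of progenitors, was not called at -0.11 ± 0.20, and Hes1 was not called at 0.96 ± 0.35.

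Genes of the early embryonic state were lower in MUT D11. Of 15 tested, 7 fell and 2 rose, with a median difference of -0.74. With the correlation 4 fell and 1 rose, and without the 5 libraries 1 fell and 1 rose, with a median of -0.61. Lin28a, an RNA-binding protein that blocks let-7 maturation, had 2.18, 7.62 and 50.2 normalised counts in the MUT D11 libraries and 74.7, 134 and 214 in the WT D9 libraries as lowest, median and highest values. The groups did not overlap, and the difference was -3.43 ± 0.56 (limma adjusted p = 0.00137, and 0.114 without the 5 libraries). Its paralog Lin28b ranged from 22.3 to 96.7 in MUT D11 and from 88.2 to 220.4 in WT D9, with a difference of -1.79 ± 0.30. Hmga2, a chromatin protein of young stem cells and a let-7 target, ranged from 630.5 to 1051 in MUT D11 and from 962 to 2296 in WT D9, with a difference of -0.74 ± 0.14 that was also called without the 5 libraries (adjusted p = 0.0484). Sall4, Dnmt3b, Igf2bp1 and Hmga1 fell as well, by differences from -2.94 for Sall4 to -0.47 for Hmga1. The imprinted genes Dlk1 and H19 were the members that rose, Dlk1 by 1.31 ± 0.23 with values from 218 to 744 in MUT D11 and from 93.0 to 318 in WT D9. Nr6a1, an orphan nuclear receptor of the trunk that goes down early, was not called, at -0.92 ± 0.51.

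RA pathway genes moved in both directions, 4 up and 2 down of 14 tested. With the correlation 0 rose and 2 fell, and without the 5 libraries 0 rose and 1 fell. Crabp2, the protein that carries RA to its receptor, was the member of largest fall. It had 2655, 4209 and 8231 normalised counts in the MUT D11 libraries and 15090, 30280 and 42820 in the WT D9 libraries as lowest, median and highest values. The difference was -2.52 ± 0.25 (limma adjusted p = 4.03e-05), all MUT D11 libraries lay below all WT D9 libraries, and the call held without the 5 libraries (adjusted p = 0.015). Cyp26a1, the RA-degrading enzyme that RA induces, ranged from 44.6 to 554 in MUT D11 and from 233 to 1805 in WT D9, with overlap and a difference of -1.96 ± 0.49. Stra6, a retinol uptake receptor, and Rarg, an RA receptor, rose by 3.78 ± 0.91 and 2.77 ± 0.70, as did the RA-making enzymes Aldh1a2 and Rdh10. Crabp1, Rarb and Dhrs3 were not called.

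Grb10 was the gene of smallest adjusted p and largest fall. It encodes an imprinted adaptor protein that restrains insulin and IGF receptor signalling, at chr11:11930508-12038683. It had 24.9, 51.7 and 62.2 normalised counts in the MUT D11 libraries and 1091, 1997 and 3643 in the WT D9 libraries as lowest, median and highest values, with a difference of -5.39 ± 0.23 (limma adjusted p = 1.03e-09, and 0.00013 without the 5 libraries). The gap was there in every domain, at -5.72 (p1), -4.88 (p2) and -5.59 (pM). It was not particular to day 11: Grb10 had a median (lowest to highest) of 254 (150.5 to 437) on day 5, 209 (95.8 to 318) on day 7 and 77.9 (24.1 to 319) on day 9 in MUT cells. The WT values were 2057 (1318 to 2686) on day 5, 2375 (1119 to 5074) on day 7 and 1321 (922 to 1924) in the NFIAp cells of day 11. Genotype and clone cannot be told apart here.

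The other large falls were of genes with unlike roles. Hk3, a hexokinase, ranged from 0 to 16.0 in MUT D11 and from 62.9 to 318 in WT D9, with a difference of -5.01 ± 0.65, and Cidea, a lipid droplet protein, differed by -4.86 ± 0.55. Nr0b1, the nuclear receptor DAX1, differed by -4.07 ± 0.68, and Pir, a nuclear iron-binding protein, by -3.20 ± 0.51. Kcnh2, the potassium channel hERG, ranged from 77.3 to 249 in MUT D11 and from 425 to 1612 in WT D9, with a difference of -2.54 ± 0.32 (limma adjusted p = 0.000271). Gcnt4, Popdc3 and Uts2b completed the 12, together with Hoxd3os1, which lies antisense in the HoxD cluster. How reads were assigned to strands is not given in the sources used here, so its value is uncertain. Of these genes Hk3 and Cidea kept their calls without the 5 libraries.

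Genes of DNA replication were lower in MUT D11. Of 29 S phase genes tested, 13 fell and 0 rose, with a median difference of -0.50, and 6 fell with the correlation. Without the 5 libraries 0 were called, while the median difference was -0.48. Mcm5, a subunit of the replicative helicase, had 3383, 4073 and 5855 normalised counts in the MUT D11 libraries and 6251, 7388 and 12250 in the WT D9 libraries as lowest, median and highest values. Its groups did not overlap, and the difference was -0.94 ± 0.18 (limma adjusted p = 0.0037). Gins2, a subunit of the GINS complex that activates that helicase, ranged from 970.2 to 3446 in MUT D11 and from 3016 to 9841 in WT D9, with a difference of -1.52 ± 0.31. Its MUT D11 libraries of replicate 3 were the 3 lowest. Prim1, the small subunit of primase, differed by -0.92 ± 0.18 and Chaf1b, a histone chaperone of the replication fork, by -0.74 ± 0.17. Pcna, Cdt1, Cdc6, Gins1, Rrm2, Tyms, Uhrf1 and Pola1 fell too, by differences from -1.13 for Tyms to -0.50 for Cdt1. The other MCM subunits Mcm2, Mcm3, Mcm4, Mcm6 and Mcm7 were not called.

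Many replication genes carry sites for E2F factors near their start. Promoters of 250 bases before and 50 after the start (RefSeq, GRCm38.p6) were searched on both strands for TTTGGCGC, TTTCGCGC, TTTCCCGC and TTTGCCGC. At least one of them was present for 9 of the 24 S phase genes tested that have a promoter in the table, among them Mcm5, Cdc6, Cdt1, Pola1 and Uhrf1 of the called members, and for 4.58% of the tested genes with a promoter. The promoters of the called members of largest difference that hold a match are printed to show where it lies, with the matches in capitals. In the Mcm5 promoter 2 matches overlap.
Mcm5, chr8:75109259-75109558, plus strand: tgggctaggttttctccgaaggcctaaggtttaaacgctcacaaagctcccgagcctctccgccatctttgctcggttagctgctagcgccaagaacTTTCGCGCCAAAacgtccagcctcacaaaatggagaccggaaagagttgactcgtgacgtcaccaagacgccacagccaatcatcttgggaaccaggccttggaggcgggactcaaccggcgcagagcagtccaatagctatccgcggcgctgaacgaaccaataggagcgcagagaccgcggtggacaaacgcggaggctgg
Pola1, chrX:93632106-93632405, minus strand: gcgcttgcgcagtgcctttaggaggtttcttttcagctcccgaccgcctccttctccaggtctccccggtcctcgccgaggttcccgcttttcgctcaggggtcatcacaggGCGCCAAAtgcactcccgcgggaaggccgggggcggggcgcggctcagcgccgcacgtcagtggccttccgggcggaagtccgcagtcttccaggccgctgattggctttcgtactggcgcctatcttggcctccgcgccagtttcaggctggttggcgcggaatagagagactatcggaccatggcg
A match is a string of letters and was not tied to binding or to the fall of these genes. Genes and motifs were paired after the values were seen.

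Of 30 G2 and M phase genes tested, 3 fell, a share near the 8.3% of all genes that fell, and 0 rose, with a median of -0.10. Those that fell were Birc5, the survivin of the chromosomal passenger complex, at -1.18 ± 0.23, Ccnb2, a mitotic cyclin, at -0.62 ± 0.14, and Cenpa, the centromeric histone, at -0.84 ± 0.23. With the correlation 1 fell, and 0 were called without the 5 libraries. Mki67, the proliferation marker, had overlapping values from 646 to 1775 in MUT D11 and from 629 to 1773 in WT D9 and a difference of 0.03 ± 0.24 (limma adjusted p = 0.942). Ccnd2, a G1 cyclin of dividing progenitors, fell in every domain. It had 2330, 3337 and 8019 normalised counts in the MUT D11 libraries and 5526, 7831 and 14970 in the WT D9 libraries as lowest, median and highest values, highest in p1 in both groups. Its difference was -1.17 ± 0.15 (limma adjusted p = 0.000301, and 0.0377 without the 5 libraries). Cdkn1c, a CDK inhibitor of cells leaving the cycle, differed by -1.16 ± 0.39. Its differences were -1.96 (p1), 0.60 (p2) and -2.32 (pM), positive in p2 alone. Ccnd1 was not called. Of 21 cholesterol synthesis genes, 3 fell and 0 rose (Ebp, Mvd and Mvk), 0 of them with the correlation or without the 5 libraries.

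Hypoxia and glycolysis genes were higher in MUT D11. Of 21 tested, 10 rose and 0 fell, with a median difference of 0.69. With the correlation 5 rose, and without the 5 libraries 0 were called, with a median of 0.77. Pfkl, the liver-type phosphofructokinase, had 7371, 9942 and 13010 normalised counts in the MUT D11 libraries and 2620, 3435 and 4495 in the WT D9 libraries as lowest, median and highest values. The groups did not overlap, and the difference was 1.49 ± 0.17 (limma adjusted p = 0.000164). Bnip3, a mitophagy receptor induced by hypoxia, ranged from 7183 to 29630 in MUT D11 and from 3694 to 7984 in WT D9, with a difference of 1.68 ± 0.21 (limma adjusted p = 0.000268). In each domain its replicate 3 was the higher MUT D11 library. P4ha1, a collagen prolyl hydroxylase, differed by 1.23 ± 0.18, and Pdk1, the kinase that shuts pyruvate dehydrogenase, by 1.36 ± 0.29. Adm, Pfkp, Pfkfb3, Pgam1, Tpi1 and Pgk1 rose too. Slc2a1, Hk2, Ldha, Vegfa and Gapdh were not called.

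The core letters of the hypoxia response element, ACGTG, were found on either strand in the promoters of 13 of 20 hypoxia and glycolysis genes with a promoter in the table, and of 28.9% of the tested genes with one. The promoters of Bnip3 and P4ha1, the called members of largest difference with a match, show its place, in capitals. In Bnip3 it reads the same on both strands, which gives 2 overlapping matches.
Bnip3, chr7:138909457-138909756, minus strand: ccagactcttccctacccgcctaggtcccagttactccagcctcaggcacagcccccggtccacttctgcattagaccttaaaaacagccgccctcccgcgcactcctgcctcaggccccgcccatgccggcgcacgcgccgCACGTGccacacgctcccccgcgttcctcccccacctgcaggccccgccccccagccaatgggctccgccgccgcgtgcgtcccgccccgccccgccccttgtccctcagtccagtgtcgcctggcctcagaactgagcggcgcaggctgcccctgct
P4ha1, chr10:59323046-59323345, plus strand: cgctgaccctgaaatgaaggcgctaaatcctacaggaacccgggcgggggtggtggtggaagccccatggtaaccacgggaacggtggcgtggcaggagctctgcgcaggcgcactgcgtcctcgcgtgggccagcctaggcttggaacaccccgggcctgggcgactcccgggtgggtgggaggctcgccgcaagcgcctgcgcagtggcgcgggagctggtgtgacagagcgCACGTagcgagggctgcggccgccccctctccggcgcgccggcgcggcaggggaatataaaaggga
As above, a match says only that these letters are present.

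Neuronal genes rose in part. Of 27 postmitotic neuron genes tested, 7 rose and 0 fell, with a median difference of 0.66. With the correlation 4 rose, and without the 5 libraries 0 were called, with a median of 0.52. Rtn1, a reticulon of neurons, had 4464, 7610 and 10300 normalised counts in the MUT D11 libraries and 1804, 2622 and 4128 in the WT D9 libraries as lowest, median and highest values, with no overlap and a difference of 1.46 ± 0.17 (limma adjusted p = 0.000164). Map2 and Mapt, which bind microtubules, differed by 1.28 ± 0.22 and 1.97 ± 0.46, and Syt1, the calcium sensor of synaptic vesicles, by 1.72 ± 0.39. Mapt overlapped in p1 (128.6 and 588 against 188.7, 56.4 and 70.9) and in p2, and Syt1 in p1 (205.3 and 411 against 222.3, 120 and 88.6). Snap25, Gap43 and Celf4 rose as well. Tubb3 and Elavl3, the usual marks of new neurons, were not called, at 0.18 ± 0.26 and 0.43 ± 0.18. The summed level of the list was 48400 to 69290 in MUT D11 and 32210 to 64460 in WT D9, so the groups overlapped.

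Among 12 temporal transcription factors of spinal neurons, the median difference was 0.55, and 0.18 without the 5 libraries. Of these 12, 6 rose and 0 fell, 4 of them with the correlation and 3 without the 5 libraries. Besides Nfia, Nfib and Nfix these were Neurod2, Neurod6 and Tcf4. Neurod6, a bHLH factor of late-born neurons, was the gene of largest rise. It was at 0 in 7 of 8 WT D9 libraries and at 3.74 normalised counts in the other, and at 33.3 to 243 in MUT D11. The replicate 2 library was the higher one in each domain. Its limma adjusted p was 4.03e-05, and 0.0159 without the 5 libraries. The earlier neuronal factors Onecut1, Onecut2 and Pou2f2 were not called.

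Proneural and neurogenic genes split, with 3 up and 4 down of 22 tested and a median of -0.10, and 0 were called with the correlation or without the 5 libraries. Gadd45g, a stress and cell cycle exit gene of neurogenic cells, ranged from 8141 to 16770 in MUT D11 and from 14440 to 22270 in WT D9, with a difference of -0.82 ± 0.19. Btg2, an antiproliferative gene of neurogenic divisions, fell by 0.73 ± 0.22 on the log2 scale. Dll4, a Notch ligand, and Eya2, a transcriptional coactivator, rose by 2.10 ± 0.62 and 1.85 ± 0.47. Dll4 was higher in p1 and pM but overlapped in p2, with 365 and 497 in MUT D11 and 348, 372 and 623 in WT D9. The proneural factors Neurog1, Neurog2 and Neurog3 were not called, with differences between -0.46 and 0.43. Of 16 Notch pathway genes 3 rose, Dll4, Heyl and Hey1, and 0 fell, beside 10.4% higher and 18.7% called over all genes tested. With the correlation or without the 5 libraries 0 were called. The median difference of the Notch list was 0.59 in the main fit and 0.20 without the 5 libraries.

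**Figure D3:**
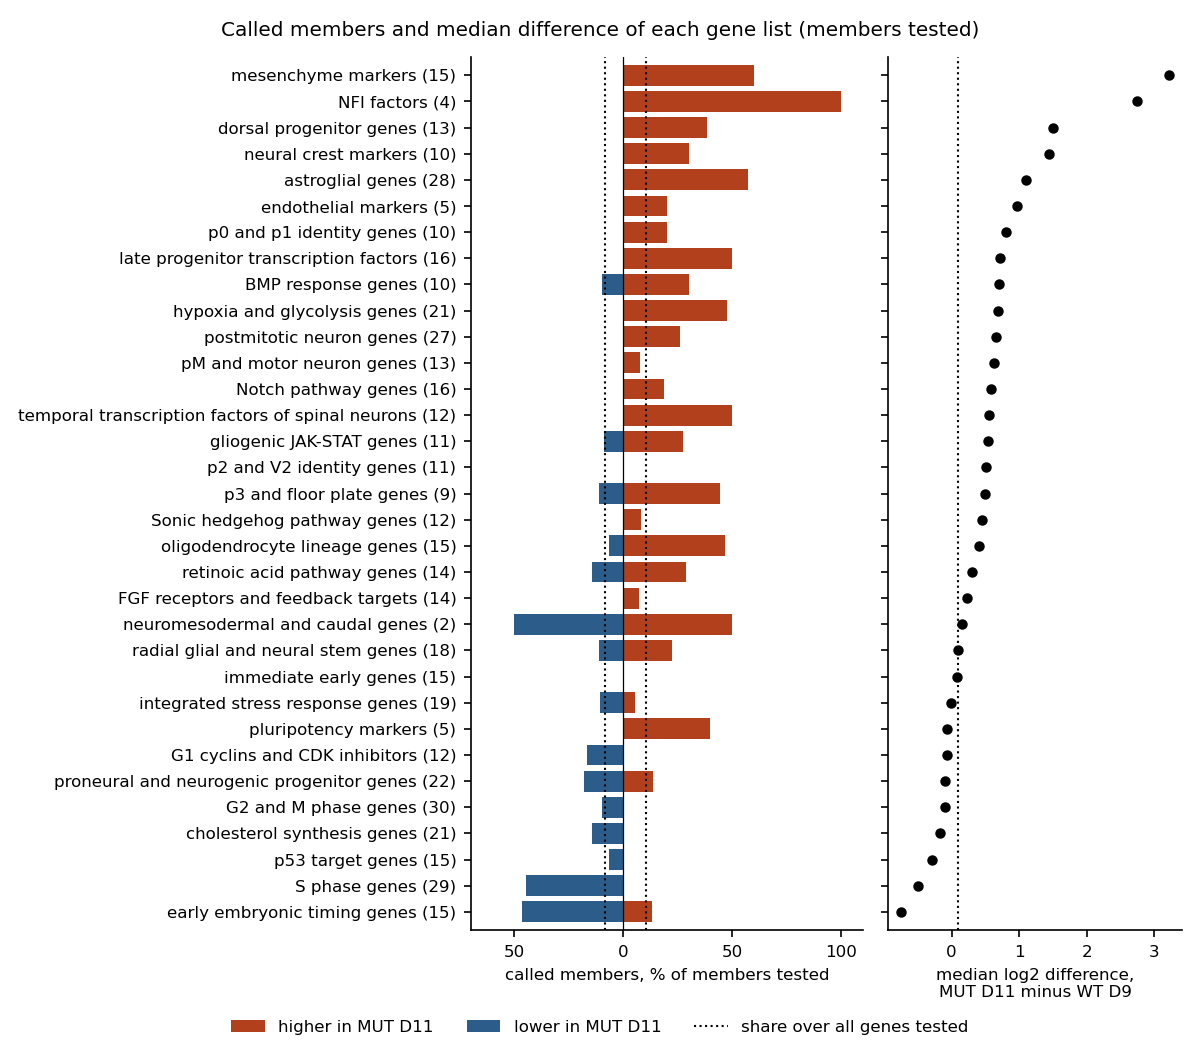
Share of tested members called higher (right) and lower (left) in MUT D11 for each gene list, in percent, with the shares over all genes tested dotted (10.4% and 8.3%), and the median log2 difference of each list, with that of all genes dotted. NFI factors, astroglial, mesenchyme and hypoxia and glycolysis genes lie to the right, S phase and early embryonic timing genes to the left.

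Genes of neighbouring domains and of dorsal progenitors were higher for some members. Of 13 dorsal genes tested 5 rose and 0 fell, with a median of 1.50. With the correlation 1 rose, and without the 5 libraries 0 were called, with a median of 1.11. Msx3, a homeobox factor of dorsal progenitors, had 940 and 2008 in MUT D11 and 288, 256 and 274 in WT D9 for p1, 306 and 497 in MUT D11 and 34.0, 38.8 and 111 in WT D9 for p2, and 329.5 and 192 in MUT D11 and 0 and 0 in WT D9 for pM. It was higher in MUT D11 in every domain, by 4.18 ± 0.69 overall (limma adjusted p = 0.00137), and the F test among domains gave an adjusted p of 0.13. Zic1, Msx2, Gsx2 and Olig3 rose as well. Of 9 p3 and floor plate genes, 4 rose, among them Spon1, a secreted matrix protein, by 2.08 ± 0.33, and Ntn1, the guidance cue netrin-1, by 0.90 ± 0.19. Nkx2-9 fell, with a difference of -2.11 ± 0.70. It was near 0 on both sides in p1 (0 and 4.96 in MUT D11, 3.74, 0 and 2.215 in WT D9). The fall lay in p2 (8.71 and 6.97 against 79.5, 76.3 and 77.8) and pM (2.44 and 20.0 against 106 and 70.8). With the correlation 2 of the 9 rose, and 0 were called without the 5 libraries. Of 10 p0 and p1 genes 2 rose (Dbx1 and Evx1), of 13 pM and motor neuron genes 1 rose (Isl1), and of 11 p2 and V2 genes 0 were called. None of these calls was kept with the correlation or without the 5 libraries. The summed level of the p2 and V2 list was 2355 and 3203 in MUT D11 p2 and 4235, 3986 and 3992 in WT D9 p2. In p1 it was 864 and 641 in MUT D11 and 1182, 1156 and 1100 in WT D9. In pM it was higher in MUT D11, at 1372 and 2371 against 908 and 886. Isl1, a factor of motor neurons, had differences of 1.66 (p1), 2.30 (p2) and -0.15 (pM), and the F test among domains gave an adjusted p of 0.733.

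The counts of the signalling lists stand beside 18.7% called among all genes tested. Stat3, the factor through which cytokines induce astrocyte genes, ranged from 578 to 1483 in MUT D11 and from 90.2 to 524 in WT D9, with no overlap and a difference of 1.79 ± 0.34 (limma adjusted p = 0.0033, and 0.11 without the 5 libraries). The cytokine receptor chains Il6st and Lifr rose by 1.30 ± 0.32 and 0.72 ± 0.19. Of 11 gliogenic JAK-STAT genes 3 rose and 1 fell, with a median difference of 0.54, and of 0.15 without the 5 libraries. Fgfr3, a receptor of progenitors and astrocytes, was the 1 of 14 FGF genes called, at 0.95 ± 0.20. Gli2, an effector of Sonic hedgehog, was the 1 of 12 pathway genes called, at 1.21 ± 0.27, while Ptch1 and Gli1, its direct targets, were not called, at 1.00 ± 0.35 and 0.21 ± 0.44. Of 10 BMP response genes 3 rose (Id2, Id3 and Msx2) and 1 fell (Bambi). With the correlation only Stat3 and Fgfr3 of these lists stayed called, and without the 5 libraries 0 did. Integrated stress, p53 and immediate early genes gave 1 up and 2 down of 19, 0 up and 1 down of 15, and 0 of 15 called, and G1 cyclins and CDK inhibitors 0 up and 2 down of 12. With the correlation Mthfd2, a mitochondrial folate enzyme of the stress response, and Ccnd2 stayed called among these, and without the 5 libraries Ccnd2 alone.

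Markers of mesenchyme were higher in all 6 MUT D11 libraries. Of 15 tested 9 rose and 0 fell, with a median difference of 3.21, and of 3.475 without the 5 libraries. With the correlation 8 rose, and without the 5 libraries 6 rose. The summed level of the list was 1055 to 5665 in MUT D11 and 118 to 619 in WT D9 normalised counts, so the groups did not overlap. Col3a1, a fibrillar collagen, had 371, 1106 and 2982 normalised counts in the MUT D11 libraries and 37.8, 91.2 and 151 in the WT D9 libraries as lowest, median and highest values. Its MUT D11 libraries of replicate 3 were the higher in each domain, and the difference was 3.82 ± 0.37 (limma adjusted p = 3.62e-05). Lum, the proteoglycan lumican, ranged from 87.9 to 588 in MUT D11 and from 0.893 to 35.5 in WT D9, and the type I collagen chains Col1a1 and Col1a2 differed by 4.87 ± 0.75 and 4.35 ± 0.56. Postn, Dcn, Acta2, Prrx1 and Pdgfrb rose too. Twist1, Twist2, Foxc1, Foxc2 and Meox1, other transcription factors of mesenchyme, were not called. The collagens, Lum and Lama4 stood beside the rises of glial genes in the same libraries, and the part of other cells in those rises was not tested.

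Markers of other cell types were in part higher too. Of 10 neural crest markers tested 3 rose (Sox10, Erbb3 and Ets1) and 0 fell, with a median difference of 1.44, and 1.29 without the 5 libraries. All 10 fitted differences were above 0, with summed levels of 277 to 2156 in MUT D11 and 58.9 to 709.9 in WT D9. Of 5 endothelial markers tested 1 rose (Kdr) and 0 fell, with a median difference of 0.98 and summed levels of 7.97 to 129.7 in MUT D11 and 17.7 to 59.9 in WT D9. No microglial or blood marker was high enough to be tested, 7 of 11 were at 0 in all 14 libraries, and the summed level was at most 7.50 in MUT D11 and 3.57 in WT D9. Of 5 pluripotency markers tested 2 rose (Esrrb and Tbx3) and 0 fell, with a median of -0.07, at summed levels of 57.4 to 211 in MUT D11 and 50.5 to 427 in WT D9, and of 2 neuromesodermal genes tested Evx1 rose and Cyp26a1 fell. With the correlation Sox10 and Cyp26a1 stayed called among these, and without the 5 libraries 0 did. The part of such cells in the other differences was not tested.

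Within single domains, with 2 or 3 libraries on each side, fewer genes were called than over all domains: 24 in p1 (0.167%), 12 in p2 (0.0837%) and 70 in pM (0.488%). The F test among domains called 1 gene (0.00698%), Eif3j2, and 440 genes had an unadjusted p under 0.05. The difference of Ntrk2 was 2.72 (p1), 2.79 (p2) and 2.80 (pM), and that of Crabp2 was -2.08 (p1), -2.51 (p2) and -3.07 (pM). For Nfia it was 2.58 (p1), 3.40 (p2) and 2.16 (pM), with SEs of 0.60 to 0.66. That no other gene passed the F test does not show that the domains acted alike.

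**Figure D4:**
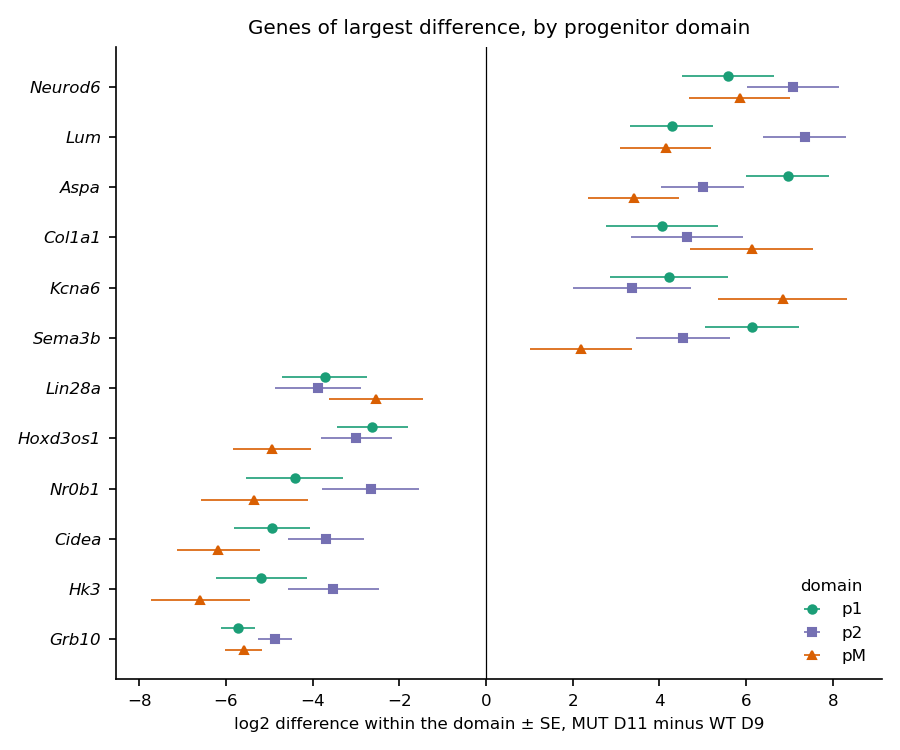
Log2 difference, MUT D11 minus WT D9, within p1, p2 and pM for the 6 genes of largest rise and the 6 of largest fall, with bars of ± 1 SE of the limma fit. All 12 lie on one side of 0 in the 3 domains because the choice of genes asked for no overlap in any domain. Grb10 has the shortest bars.

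Levels on the other days place these differences in time, as description only. Nfia had a median (lowest to highest) of 213 (122 to 526) normalised counts in the 5 MUT D9 libraries and of 1792 (1096 to 3639) in the 6 WT D11 NFIAp libraries. The MUT D11 range of 1014 to 2177 thus overlapped that of WT cells sorted as NFIA-positive on the same day. Ntrk2 had 341 (172 to 556) in MUT D9 and 3186 (1801 to 4098) in WT D11, and Crabp2 had 30730 (16020 to 46750) in MUT D9 and 4987 (2720 to 10090) in WT D11. For all 3, MUT D9 lay in or near the WT D9 range and MUT D11 in or near the WT D11 range. Lin28a followed the same course, with 129.6 (80.2 to 305) in MUT D9 and 17.2 (4.80 to 33.8) in WT D11.

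Some glial genes stood lower in MUT D11 than in WT D11. Hopx had 8000 (2145 to 15450) in WT D11, with 804 to 6622 in MUT D11, so the ranges overlapped. Aldoc had 3192 (1640 to 7321) in WT D11, where the MUT D11 libraries spanned 300.2 to 1169. Fabp7 had 98280 (53690 to 167200) in WT D11 and 11860 to 71340 in MUT D11. Olig1 had 55.4 (4.53 to 6438) in WT D11 and 3.31 to 1084 in MUT D11. These pairs differ in gate as well as genotype and were not tested here.

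Other differences were in part already there on day 9. Cnp had 1456 (1335 to 2018) in MUT D9, below all WT D9 libraries (2724 to 3892), and 3250 (2337 to 6781) in WT D11. Bnip3 had 10060 (9240 to 13960) in MUT D9, above all WT D9 libraries (3694 to 7984), and 9859 (6171 to 26060) in WT D11. Pfkl had 6432 (5818 to 7745) in MUT D9 and 5249 (3162 to 9354) in WT D11, against 2620 to 4495 in WT D9. Col3a1 had 239 (141 to 515) in MUT D9, 555 (89.7 to 1499) in the NFIAp cells of WT D9 and 914 (534 to 2316) in WT D11, so WT cells of the NFIAp gate also held it.

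**Figure D5:**
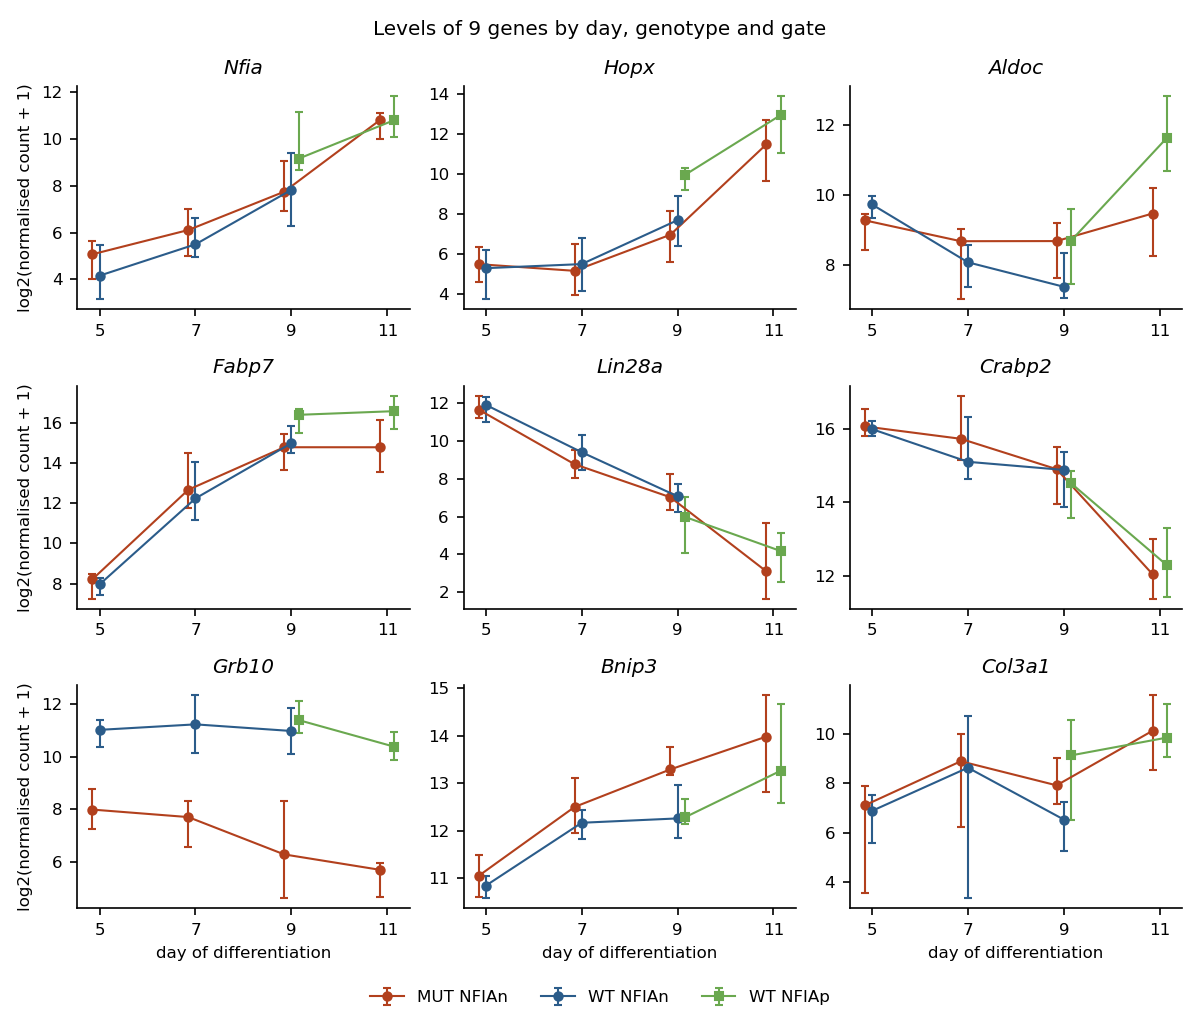
Median of 9 genes by day of differentiation as log2(normalised count + 1), with bars over the lowest and highest library, for MUT NFIAn, WT NFIAn and WT NFIAp cells. Nfia, Hopx, Lin28a and Crabp2 change along the series in both genotypes. WT cells on day 11 are NFIAp only, so from WT NFIAn to day 11 the gate changes with the day. Aldoc and Fabp7 are higher in WT NFIAp cells on day 11 than in MUT cells, and Grb10 is lower in MUT cells on every day.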

How the data were processed

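Polyadenylated RNA of sorted, glyoxal-fixed progenitors was sequenced in 66 libraries, of which 14 enter the comparison. Per the submitters' processing notes, reads were mapped to mm10 and counts were normalised with DESeq2. Versions, aligner and read counter are not given in the sources used here. Each deposited value is a signal, a normalised read count per gene symbol, that is, a count the authors divided by a size factor. Division by the value of 1 read gave whole numbers within 0.01 for 100% of values in each library, and these recovered reads served the count tests. Of 24410 symbols, 23378 matched GENCODE M21 (GRCm38). No mitochondrially encoded gene is in the table. No replicates were identical, with a lowest chi-squared per degree of freedom of 53.1 over 10 pairs.

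Values were tested as log2(value + 1) with limma 3.58.1 (R 4.3.3, variance trend, two-sided, Benjamini-Hochberg), for genes at 10 or more in at least 2 of the 14 libraries. Within-domain contrasts and the F test used a mean per group. The limma, edgeR and DESeq2 fits were tried on simulated reads. Named genes are the 12 largest rises and 12 largest falls among called genes whose higher side averaged 50 or more and whose groups overlapped in no domain, up to 4 called members per list (or the 2 of largest difference), fixed regulators, and the smallest p-values of the F test. Gene models were passed over, some genes that these rules took are not reported here, and further list members are given with the counts. The comparison, lists and members were chosen with earlier results of these data known. The replicate 2 minus replicate 3 difference correlated across genes between MUT D11 and WT D9 at 0.0715 in p1 and 0.0833 in p2. WT D9 pM has no replicate 2. The main fit did not treat replicate numbers as pairs. Alternatives used edgeR 4.0.16 and DESeq2 1.42.0 on recovered reads, other scalings and filters, and left-out libraries.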

Additional observations from a re-analysis of the deposited data

Results flagged for a closer look

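Eif3j2, a subunit-associated factor of translation initiation, was the gene whose change differed among the domains (limma F test, adjusted p = 8.56e-05). It was at 0 and 0 normalised counts in the MUT D11 pM libraries and at 884 and 1255 in WT D9 pM. In p1 it had 1619 and 962 in MUT D11 and 1044, 639.9 and 1337 in WT D9, and in p2 939 and 324 in MUT D11 and 1403, 1643 and 525 in WT D9. It has a near-identical copy, Eif3j1, so the assignment of reads between them is uncertain. No group of one domain holds more than 3 libraries, so single libraries were not tested for standing apart.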

How the results depend on the processing

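The count over all domains stayed within 1.5 times of 2676 with TMM scaling (2714), a pseudocount of 8 (2855), edgeR (2304) or DESeq2 (3575) on recovered reads, no filter (2312) and a fit of all 66 libraries (3636). It was 775 with a correlation among libraries that share genotype, day and replicate number (estimated at 0.351), 94 without the 5 libraries of high deposited total, 690 without p1, 612 without p2, 783 without pM, and 54 with the domains averaged per replicate number, an alternative chosen after seeing the data. The last 5 use fewer libraries or values. With the replicate block it was 5738, with 2334, 3014 and 3224 within p1, p2 and pM and 2 by the F test. The groups share only a number, so this fit is not read as a pairing. Leaving out 1 library gave 1256 to 3327 over all domains, 3 to 91 within p1, 1 to 91 within p2, 14 to 83 within pM and 1 to 3 by the F test. The lowest came without MUT D11 p1 replicate 3 (1256), p2 replicate 3 (1311) and pM replicate 3 (1478) and WT D9 pM replicate 3 (1483). Where 1 library was left on a side, it was assumed to vary like the others.

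Counts within p1, p2 and pM moved with other settings: within p1 to 47 with a pseudocount of 8, 42 with no filter, 268 with DESeq2 and 287 with all 66 libraries. Within p2 they were 34, 22, 352 and 363 in the same order, and 41 with the correlation. Within pM they were 37 with edgeR, 529 with DESeq2, 432 with all 66 libraries and 208 with the correlation. All 3 were 0 without the 5 libraries (limma; 366, 487 and 1003 genes at an unadjusted p under 0.05). The F test called 25 genes with DESeq2 and 2 with the correlation. The cause of these moves was not tested. Among the 144 genes that the rule took and all alternatives, 3285 of 3888 values kept side and direction, 579 lost and 24 gained a call, and 0 reversed. The alternatives reuse the libraries from which many of these genes were taken, so the lack of reversals is no independent support. Of the list counts, 1426 of 1836 stayed within 1.5 times.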

Other observations

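Tgoln2, a trans-Golgi protein, had the same kind of gap as Eif3j2 without passing the F test (limma adjusted p = 0.549). It was at 0 and 0 normalised counts in MUT D11 pM and at 214 and 139 in WT D9 pM, while in p1 it was at 64.8 and 0 in MUT D11 and at 0, 0 and 0 in WT D9.

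Within MUT D11, the 2 replicate numbers differed in the same genes across domains: the difference between them correlated across genes at 0.325 to 0.340 between pairs of domains, against 0.125 to 0.192 within WT D9. Genes are not independent replicates, and these values are a description.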
